A study of Mus musculus with 2 samples.

Results

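10 genes were followed across 2 brain sections after a traumatic injury: 6 matrix metalloproteinases (Mmp2, Mmp3, Mmp9, Mmp12, Mmp14 and Mmp19) and the 4 tissue inhibitors of metalloproteinases (Timp1 to Timp4). They were chosen by name, as the protease and inhibitor genes of the extracellular matrix in brain injury, with earlier results of these data known. They make up 10 of the 19070 genes of the spatial assay. Counts of called members or list genes beside a background share may thus reflect the choice in part. One section came from a mouse killed 3 days after controlled cortical impact (CCI 3 days) and one from a mouse killed 28 days after it (CCI 28 days). In CCI a piston strikes the exposed cortex, here over the right parietal lobe, and leaves a lesion on that side only. Both mice were males of the strain given as C57Bl6 in the labels and as C57BL/6J in the study's methods, 3 months old at the impact, so that the 28 days mouse was older when killed, with no other treatment named in the labels, and no section of an uninjured brain was analysed here. The opposite side of each injured brain was therefore the reference, and it belongs to an animal that was itself operated on. With 1 mouse and 1 section per time, no difference could be set against the variation between mice, and time, animal and section cannot be told apart. Intervals, at 95% throughout, reflect the counting of molecules alone.

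Matrix metalloproteinases are zinc proteases that cut collagens, laminins and other proteins of the extracellular matrix, and most are made as inactive precursors that other proteases switch on. The TIMP proteins bind the active site of these enzymes and block it, so that the local balance of enzyme and inhibitor sets how far matrix and basement membrane are opened. In the injured brain these genes are known from work on barrier leakage, invading leukocytes, scar formation and the clearing of myelin and dead tissue.

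Expression was measured with Visium HD, which captures probes for each gene on a grid and counts unique molecular identifiers (UMIs, 1 per captured probe pair) in squares of 16 µm. A square of this size can hold parts of several cells, and for a summed area fewer cells of a type and less RNA per cell cannot be told apart. The 3 days section held 121967 bins with a median of 836 UMIs, and the 28 days section held 105589 bins with a median of 596. After bins under 100 UMIs were left out, the injured side had 39116 bins at 3 days and 49478 at 28 days, against 80501 and 53838 on the opposite side, so that less of the injured hemisphere lay on the array at 3 days. The injured side of that section reached 2080 µm from the midline, and tissue farther out was measured at 28 days alone. A lesion zone was drawn on the injured side where 6 phagocyte genes (Cd68, Lyz2, Ctsz, Lgals3, Cd52 and Laptm5) took an unusually large share of UMIs. It covered 8506 bins at 3 days and 13559 at 28 days, and because phagocyte genes placed it, any gene that phagocytes use is high in it in part by construction. Levels are given as CPM, the UMIs of a gene per 1000000 UMIs of the same area, and a gene was called higher or lower at 2-fold or more with at least 20 UMIs over both areas. The sections lay on separate arrays that share 84781 bin positions, which are grid places and not shared cells. Lists of neuron, astrocyte and oligodendrocyte genes were detected in both sections, and no marker gene that the probe set holds was at 0; 1 of the 6 endothelial genes is not among its probes.

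The promoters of Mmp3, Mmp12 and Timp1 are shown because these genes had the highest ratios of lesion zone to opposite side in both sections. In the RefSeq annotation of GRCm38.p6, Mmp12 (chr9:7344397-7360461) and Mmp3 (chr9:7445822-7455975) lie in 1 cluster on chromosome 9 together with Mmp13, Mmp10, Mmp8, Mmp20 and Mmp7. Timp1 (chrX:20870166-20874737), Timp3 (chr10:86300412-86349505) and Timp4 (chr6:115244444-115252205) each lie within the span of a synapsin gene, Syn1, Syn3 and Syn2. The 250 bases before the start of 1 promoter entry are printed 5′ to 3′ for each of these 3 genes. Capitals mark the AP-1 site TGAGTCA and the TATA box TATAAA, searched on both strands. Mmp12 has 2 entries, and the one shown was picked because it has an AP-1 match. It lies within the gene span given above. The other entry, chr9:7344147-7344396, ends directly before the annotated gene start and has no AP-1 match. Of the 10 genes, 7 had a promoter entry in the table used, and Mmp2, Mmp9 and Mmp19 did not.
Mmp3 promoter, chr9:7445572-7445821, plus strand: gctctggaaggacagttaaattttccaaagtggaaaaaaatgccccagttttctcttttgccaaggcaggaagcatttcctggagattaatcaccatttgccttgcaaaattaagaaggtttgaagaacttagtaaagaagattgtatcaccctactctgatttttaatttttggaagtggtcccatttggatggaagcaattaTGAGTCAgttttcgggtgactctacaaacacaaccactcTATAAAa
Mmp12 promoter, chr9:7347124-7347373, plus strand: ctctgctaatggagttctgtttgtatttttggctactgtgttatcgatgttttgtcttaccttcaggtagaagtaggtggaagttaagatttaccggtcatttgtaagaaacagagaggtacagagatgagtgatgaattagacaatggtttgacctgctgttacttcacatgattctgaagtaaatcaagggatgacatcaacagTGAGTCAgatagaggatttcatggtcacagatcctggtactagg
Timp1 promoter, chrX:20869916-20870165, plus strand: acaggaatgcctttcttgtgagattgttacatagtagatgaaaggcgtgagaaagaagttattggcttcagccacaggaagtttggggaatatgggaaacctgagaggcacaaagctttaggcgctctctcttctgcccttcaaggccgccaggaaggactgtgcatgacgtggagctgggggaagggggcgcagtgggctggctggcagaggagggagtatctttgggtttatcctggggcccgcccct
The AP-1 letters stand 46 to 40 bases before the start of Mmp3 and 44 to 38 bases before that of this Mmp12 entry, and the TATA letters stand 7 to 2 bases before the start of Mmp3. Among all 32851 mouse promoters of this length, 4.46% held the AP-1 letters and 12.4% the TATA letters. The GC box GGGCGG, found in 32.7% of all promoters, occurred in Timp1 (on the other strand, 8 to 3 bases before the start), Timp2, Timp3 and Mmp14. These are matches of letters, and binding was not measured.

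On the injured side, 5 of the 10 genes were called higher at 3 days and none lower, at a background of 10.5% of all tested genes called higher and 2.12% called lower. The same 5 genes, Mmp2, Mmp3, Mmp12, Mmp19 and Timp1, were called higher at 28 days, at a background of 6.43%. The median log2 ratio of injured to opposite side over the members was 1.24 at 3 days and 1.05 at 28 days, beside 0.14 and 0.04 over all genes tested. The remaining genes, Mmp9, Mmp14, Timp2, Timp3 and Timp4, stayed under 2-fold on the injured side at both times.

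**Figure D1:**
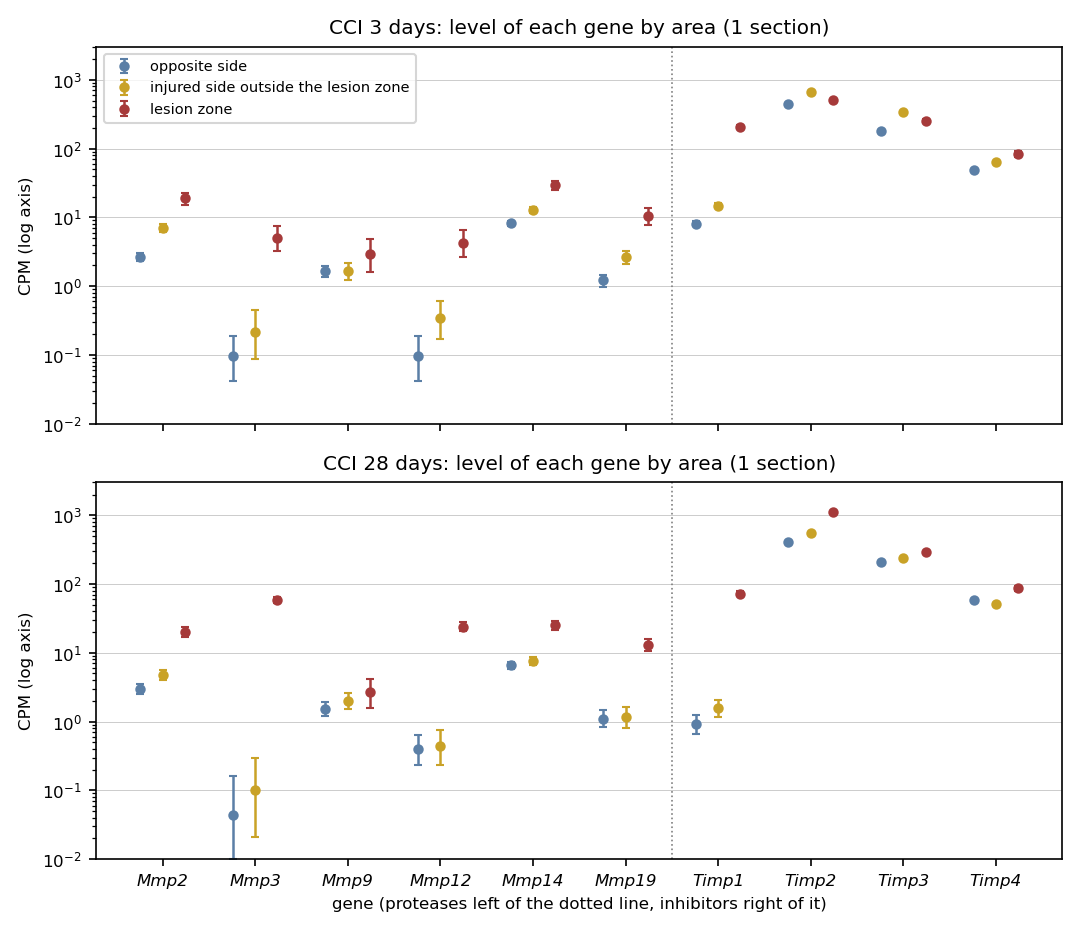
Level of each of the 10 genes (CPM, log axis) in the lesion zone, the injured side outside it and the opposite side of the 3 days and the 28 days section. Points are sums over 1 area of 1 section and bars are 95% counting intervals; Mmp3, Mmp12 and Timp1 show the widest gaps between the zone and the opposite side, and Mmp9 the most overlap.

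Among the proteases, Mmp3 (stromelysin-1, which cuts matrix proteins and activates other metalloproteinases) had few UMIs at 3 days and many at 28 days. At 3 days it had 33 UMIs on the injured side and 8 on the opposite side, log2 ratio 3.12 (2.04 to 4.51) that rests on few molecules. At 28 days it had 422 UMIs on the injured side (11.4 CPM) and 2 on the opposite side (0.0443 CPM), log2 ratio 7.68 (6.14 to 11.1). Almost all of these molecules lay in the lesion zone, which held 419 UMIs of Mmp3 at 28 days. Of the 422 UMIs, 51 lay 2500 to 3000 µm from the midline and 359 lay 3000 to 3500 µm from it, beyond the tissue measured at 3 days. Cut to the reach that both sides of the 28 days section share, the injured side held 25 UMIs of Mmp3 (0.978 CPM) and the log2 ratio was 4.17 (2.46 to 7.59), still called higher.

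Mmp12 (macrophage elastase, an elastin-cutting enzyme of macrophages) had the same counts as Mmp3 at 3 days, 33 and 8 UMIs. At 28 days it had 184 UMIs on the injured side and 18 on the opposite side, 4.96 and 0.398 CPM, log2 ratio 3.60 (2.94 to 4.42). The injured side thus stood above the opposite side at both times, by a factor whose 3 days interval is wide. Against the opposite side cut to the reach of the injured side, which held 1 UMI, the 3 days log2 ratio was 4.56 (2.55 to 10.5) in place of 3.12.

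Mmp2 (gelatinase A, which cuts basement membrane collagen and is made by fibroblasts and vessel-associated cells) had 8.63 CPM on the injured side and 2.62 on the opposite side at 3 days, log2 ratio 1.72 (1.47 to 1.98). At 28 days the levels were 7.73 and 3.01 CPM, log2 ratio 1.36 (1.06 to 1.67). The 3 days difference of Mmp2 moved with choroid plexus tissue. The list of choroid plexus genes stood at 7197 CPM on the injured and 1371 CPM on the opposite side of that section, and Mmp2 reached 54.1 CPM in choroid plexus-rich bins. Without those bins the log2 ratio of Mmp2 at 3 days was 1.45 and the gene was still called higher.

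Mmp19 (a secreted protease of basement membrane proteins) had 139 and 100 UMIs on the injured and opposite side at 3 days, 3.70 and 1.21 CPM, log2 ratio 1.62 (1.24 to 2.00). At 28 days it had 3.45 and 1.11 CPM, log2 ratio 1.63 (1.16 to 2.14). When the opposite side at 3 days was cut to the distance from the midline that the injured side reaches, the log2 ratio of Mmp19 was 0.91 (0.50 to 1.33) and it was no longer called. Within the reach that both sides share at 28 days it was 1.76 (1.25 to 2.29), so that the similar size of the whole-side ratios in the sections was not kept.

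Mmp14 (the membrane-anchored MT1-MMP, known as the activator of the Mmp2 precursor) stood less than 2-fold higher over the whole side. It had 14.9 and 8.15 CPM on the injured and opposite side at 3 days (log2 ratio 0.87, 0.71 to 1.04) and 10.96 and 6.57 CPM at 28 days (0.74, 0.52 to 0.96). Both intervals of Mmp14 lie above 0. With the 3 days opposite side cut to the reach of the injured side, Mmp14 was at 14.9 against 10.5 CPM. Within the reach that both sides share at 28 days it was at 12.4 against 6.57 CPM. The order of the whole-side ratios in the sections was thus not kept.

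Mmp9 (gelatinase B, carried in granules by neutrophils and known for opening the blood-brain barrier) did not differ detectably between the sides at this depth. It had 68 UMIs on the injured and 136 on the opposite side at 3 days, 1.81 and 1.64 CPM, log2 ratio 0.15 (-0.30 to 0.57). At 28 days it had 79 and 69 UMIs, log2 ratio 0.48 (-0.01 to 0.97). Both intervals of Mmp9 leave out a 2-fold rise of the whole side.

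Among the inhibitors, Timp1 (the inducible TIMP, secreted by many cell types in inflammation) was the gene with the clearest difference at 3 days. It had 1549 UMIs on the injured side and 672 on the opposite side, 41.2 and 8.10 CPM, log2 ratio 2.35 (2.22 to 2.48). At 28 days it had 563 and 42 UMIs, 15.2 and 0.93 CPM, log2 ratio 4.01 (3.57 to 4.52). The larger ratio at 28 days came with a lower level on both sides. Against the opposite side cut to the reach of the injured side, at 15.0 CPM, the 3 days log2 ratio was 1.46 (1.33 to 1.60), and within the reach shared by both sides at 28 days it was 3.20 (2.74 to 3.73). Timp1 was called higher under both cuts.

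Timp2 (a broadly expressed TIMP that also takes part in Mmp2 activation at the cell surface) had 651 CPM on the injured and 449 CPM on the opposite side of the 3 days section, and 659 CPM and 413 CPM in the 28 days section. Its log2 ratios were 0.54 (0.51 to 0.56) and 0.67 (0.65 to 0.70). Timp3 (the matrix-bound TIMP, which also inhibits ADAM proteases) had 324 and 183 CPM at 3 days, log2 ratio 0.83 (0.79 to 0.86), and 247 and 206 CPM at 28 days, log2 ratio 0.26 (0.22 to 0.30). Timp4 (the TIMP with the most restricted tissue range) had 66.7 and 49.5 CPM at 3 days and 57.8 and 59.0 CPM at 28 days, so that its small excess at 3 days (0.43) was not seen at 28 days (-0.03, -0.11 to 0.05). With the 3 days opposite side cut to the reach of the injured side, the excess of Timp4 there was 0.10 (0.02 to 0.18). Within the reach that both sides share at 28 days Timp4 was at 65.1 against 59.0 CPM, so that this contrast between the sections was not kept. For Timp3 the 3 days ratio was 0.76 without choroid plexus-rich bins. Under the same cuts in reach, Timp3 was at 324 against 237 CPM at 3 days and 299 against 206 CPM at 28 days. Its larger whole-side ratio at 3 days was thus not kept over matched reach. None of these 3 inhibitors reached 2-fold on the whole side.

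In the lesion zone itself the gradient was steeper. At 3 days 6 of the 10 genes were called higher in the zone than on the opposite side (background 21.8%), namely the 5 above and Mmp14, and at 28 days 7 of 10 (background 17.4%), with Timp2 added. The member median log2 ratio was 2.34 at 3 days and 2.35 at 28 days, beside 0.15 and -0.01 over all genes. No member was called lower in the zone at either time, at backgrounds of 11.1% and 10.8%, so that about 1 such call would match the share over all genes. Marker lists of several cell types were raised there as well: the log2 ratio of the late phagocyte list was 4.54 at 3 days and 6.31 at 28 days, that of the infiltrating macrophage list 5.31 and 4.17, and that of the neutrophil list 3.29 and 4.18. The fibroblast and meningeal list stood at 1.88 and 1.76, the smooth muscle list at 2.25 and 0.54, and the erythroid list at 5.85 and 0.39. Lists of resident glia were raised too, with homeostatic microglia at 1.89 and 2.83, astrocytes at 0.82 and 1.88 and oligodendrocytes at 1.89 and 0.96. The excitatory neuron (-1.69 and -1.68), inhibitory neuron (-1.11 and -0.98) and choroid plexus (-0.28 and -3.81) lists were lower. The part of these cells in the member ratios was not tested.

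The proteases of the zone differed in how far they stood out. At 3 days Mmp3 had 26 UMIs in the zone (5.04 CPM, log2 ratio 5.65, 4.52 to 7.06) and Mmp12 had 22 (4.26 CPM, 5.41, 4.24 to 6.84). At 28 days Mmp12 had 171 UMIs in the zone, 23.9 CPM, log2 ratio 5.87 (5.20 to 6.69). Mmp3 at 28 days reached 58.5 CPM against 0.0443 CPM, log2 ratio 10.0 (8.51 to 13.4) whose size is limited by the 2 UMIs on the opposite side. The part of that zone within 2080 µm of the midline held 12 UMIs of Mmp3, 2.92 CPM, so that the size of the ratio rests on tissue farther out. This inner part still stood above the 0.0443 CPM of the opposite side.

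Against the whole opposite side, Mmp2, Mmp19 and Mmp14 had ratios of similar size at both times. Mmp2 had 18.8 CPM at 3 days (log2 ratio 2.85, 2.48 to 3.20) and 20.4 CPM at 28 days (2.76, 2.41 to 3.11). Mmp19 had 10.5 CPM (3.12, 2.61 to 3.61) and 12.99 CPM (3.55, 3.04 to 4.08). Mmp14 had 29.1 CPM (1.84, 1.57 to 2.09) and 25.3 CPM (1.95, 1.67 to 2.21). Mmp9 was not called, with 15 UMIs in the zone at 3 days (0.87, -0.05 to 1.60) and 19 at 28 days (0.82, -0.02 to 1.55), counts too low to tell a 2-fold rise from no change.

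The inhibitors parted in the zone. Timp1 had 1068 UMIs there at 3 days, 207 CPM against 8.10 on the opposite side (log2 ratio 4.67, 4.53 to 4.82), and 516 UMIs at 28 days, 72.1 CPM against 0.93 (6.26, 5.82 to 6.77). Timp2 was at 502 CPM at 3 days, log2 ratio 0.16 (0.10 to 0.22), and at 1118 CPM at 28 days, log2 ratio 1.44 (1.40 to 1.47). Timp3 (0.46 and 0.51) and Timp4 (0.75 and 0.56) stayed under 2-fold in the zone at both times.

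Against the place opposite the zone, mirrored across the midline, the counts of calls were close to those against the whole opposite side, but 10 of 20 log2 ratios lay outside their earlier intervals. At 3 days 6 of 10 genes were called higher than in the mirrored zone (background 17.0%, and 8.57% called lower) and at 28 days 8 of 10 (background 16.4%, and 7.82% lower). The mirrored zone had 0 UMIs of Mmp12 at 3 days, so that the zone was at least 10.3-fold higher against a floor of 3 UMIs. It had 0 UMIs of Mmp3 at 28 days, but the opposite side of that section ended less than 3000 µm from the midline, so that most of the Mmp3 of the zone had no tissue opposite it and no fold is given. The gene added at 28 days was Mmp9, with 19 UMIs in the zone against 7 in the mirrored zone, log2 ratio 1.42 (0.17 to 2.98). The part of the zone within 2080 µm of the midline held 4 of these, 0.972 CPM, beside 0.948 CPM in the mirrored zone. The call of Mmp9 thus rests on tissue farther out, where the mirrored zone is incomplete. For Timp1 at 3 days the mirrored zone was not a low reference: it held 302 of the 672 UMIs of the opposite side, 41.5 CPM, and the log2 ratio was 2.32 (2.13 to 2.51) in place of 4.67. Mmp19 at 3 days went to 1.48 (0.80 to 2.22) and at 28 days to 4.42 (3.18 to 6.49), on 27 and 4 UMIs in the mirrored zone, so that for this reference its ratios in the sections no longer overlapped. At 3 days Mmp3 stood at 3.90 (2.20 to 7.32) on 2 UMIs in the mirrored zone, and Timp2 at 0.91 (0.83 to 0.997) in place of 0.16. Mmp12 at 28 days stood at 6.88 (4.96 to 12.8), on 1 UMI in the mirrored zone. Of its 184 UMIs on the injured side, 61 lay 3000 to 3500 µm from the midline, where no tissue lay opposite.

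**Figure D2:**
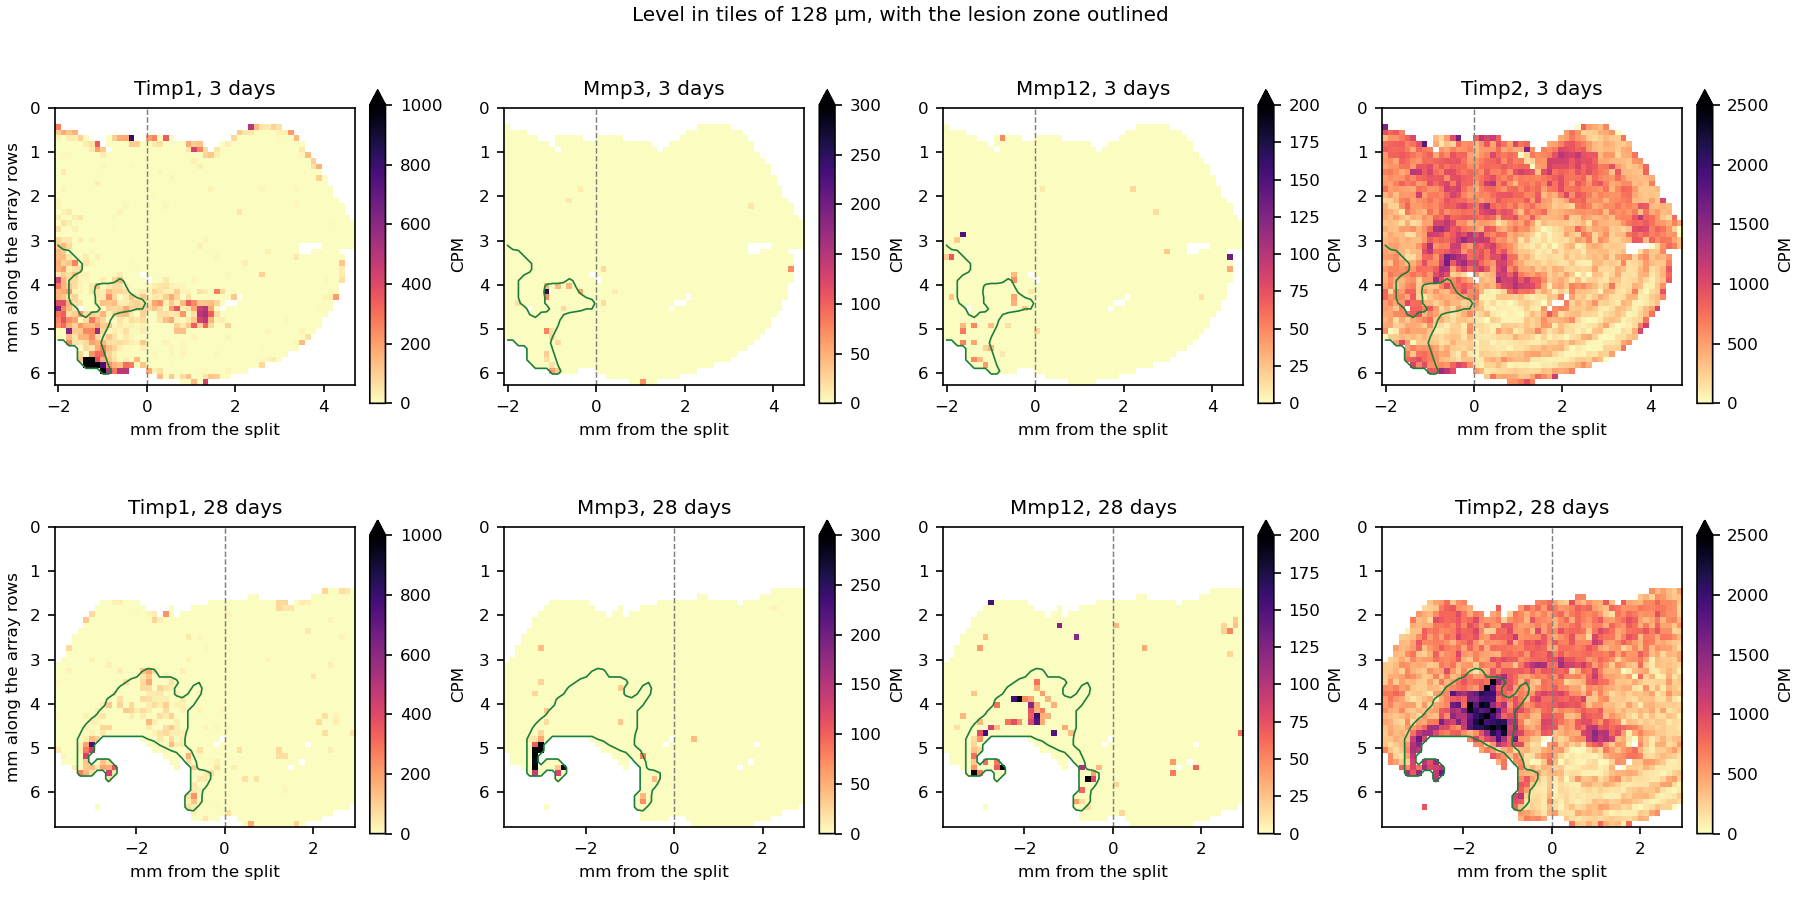
Maps of both sections in tiles of 8 by 8 bins, with the distance from the midline split (mm, injured side negative) and the position along the array rows (mm), coloured by the level of Timp1, Mmp3, Mmp12 and Timp2 (CPM, colour scales cut at their top value) and with the lesion zone outlined. The highest Mmp3 and Timp1 tiles of the 28 days section sit together in the part of the zone farthest from the split, whereas Timp2 fills a broader field of the zone nearer to the split.

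Outside the zone, the injured side stood closer to the opposite side. The member median log2 ratio there was 0.76 at 3 days and 0.20 at 28 days, beside 0.12 and 0.03 over all genes. At 3 days 2 of the 8 genes with enough UMIs were called higher (background 6.28%), Mmp2 at a log2 ratio of 1.42 (1.15 to 1.70) and Mmp19 at 1.12 (0.69 to 1.55). At 28 days none of 9 was called higher (background 1.88%) or lower (background 0.777%), and Mmp2 stood at 0.64 (0.29 to 0.995). Without choroid plexus-rich bins Mmp2 of that section was at 3.58 CPM outside the zone against 2.78 CPM on the opposite side. The calls on the whole injured side at 28 days thus came with the zone. Neither of the 3 days calls held under every choice: without choroid plexus-rich bins Mmp2 was at 4.53 against 2.39 CPM, log2 ratio 0.92 (0.60 to 1.24), and against the opposite side cut to the same reach Mmp19 was at 0.42 (-0.04 to 0.88). Against that cut Timp1 outside the zone went from 0.87 to -0.01 (-0.19 to 0.16).

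The fall with distance from the zone differed between genes and between the sections. At 3 days Timp1 went from 207 CPM in the zone to 43.0 within 250 µm of its border, 19.4 from there to 500 µm, 5.95 to 1000 µm and 1.04 to 2000 µm, and it stood at 14.7 CPM again beyond 2000 µm, with 90 UMIs. Mmp2 was at 18.8 CPM in the zone, 17.0 within 250 µm and 9.72 to 500 µm, before it dropped to 2.64. Without choroid plexus-rich bins Mmp2 was at 6.41 CPM (4.32 to 9.15) within 250 µm and 6.49 (4.35 to 9.32) to 500 µm, against 18.5 in the zone and 2.39 on the opposite side. Mmp19 fell from 10.5 to 6.63, 2.96 and 1.16 CPM over the same bands. Within 250 µm of the zone these 3 genes thus stood above the opposite side, Mmp2 less so without choroid plexus tissue.

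At 28 days the border was sharp. Each section's border was set against its own opposite side, so the borders need not lie at the same share of phagocyte genes. Timp1 went from 72.1 CPM in the zone to 2.23 within 250 µm, Mmp12 from 23.9 to 0.594, and Mmp19 from 12.99 to 1.19. Mmp3 had 0 UMIs within 250 µm of the zone, a level with an upper limit of 0.547 CPM, against 58.5 CPM inside it. Mmp2 (20.4 to 6.08 CPM) and Mmp14 (25.3 to 8.46 CPM) fell less steeply. Without choroid plexus-rich bins Mmp2 was at 3.71 CPM (2.35 to 5.57) within 250 µm, against 20.4 in the zone and 2.78 on the opposite side. Timp2 fell from 1118 to 453 CPM, below its level of 649 CPM at 500 to 1000 µm.

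**Figure D3:**
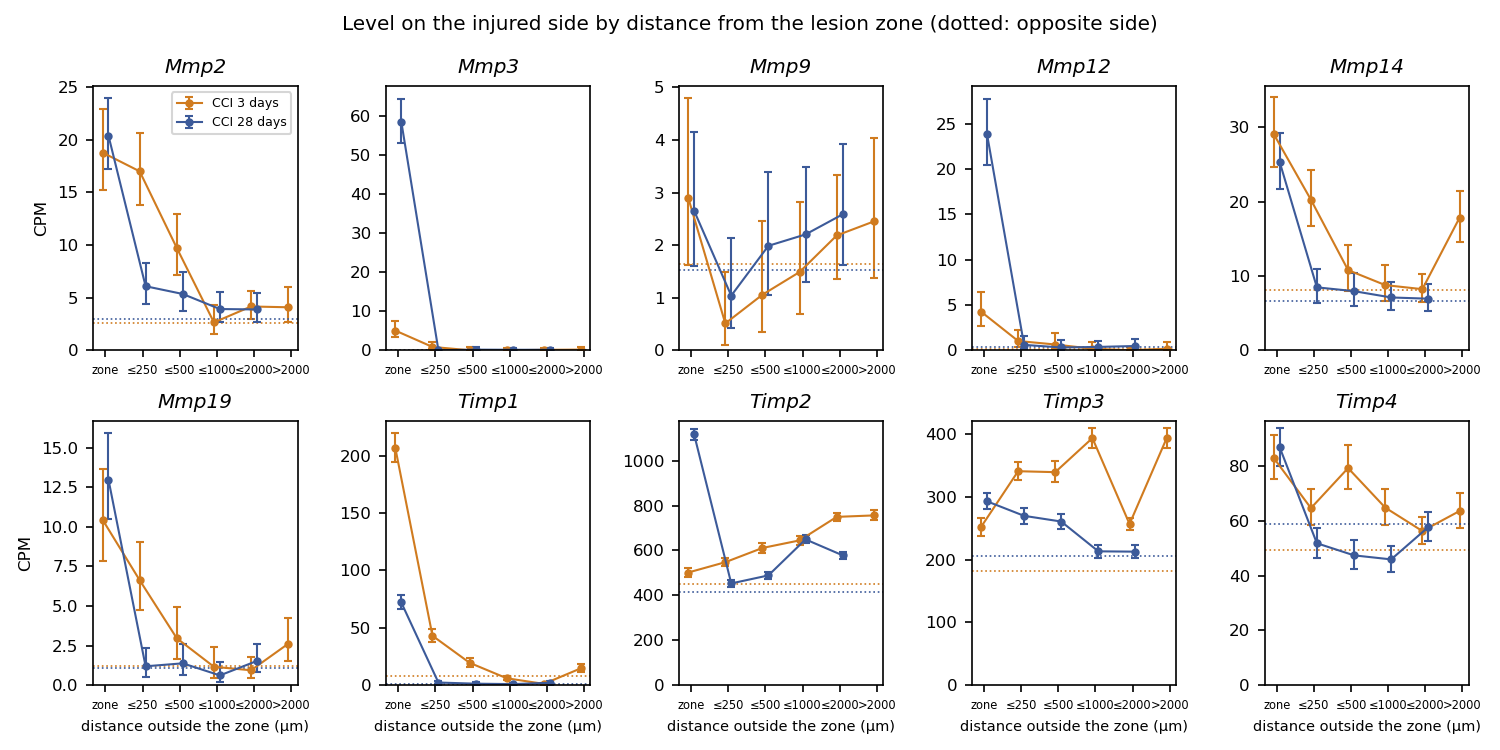
Level of each gene (CPM, linear axis from 0) in the lesion zone and in bands of distance from its border on the injured side (µm), for the 3 days and the 28 days section, with 95% counting intervals and dotted lines for the opposite side. At 3 days Timp1, Mmp2 and Mmp19 fall over several bands and Timp1 rises again in the farthest, and at 28 days Timp1, Mmp3, Mmp12 and Mmp19 fall within the first band.

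At 3 days Timp2 and Timp3 ran the other way within the injured side. Timp2 was at 502 CPM in the zone and 674 CPM in the rest of the injured side, log2 ratio -0.43 (-0.49 to -0.37), and Timp3 at 252 and 336 CPM, -0.41 (-0.50 to -0.33). At 28 days the zone was the higher area for both in CPM, at 1118 against 550 CPM for Timp2 (1.02, 0.98 to 1.06) and 293 against 236 CPM for Timp3 (0.31, 0.24 to 0.38). Per 1000 bins it held 590 against 459 UMIs of Timp2 but 155 against 197 of Timp3, so that by this scale the zone was lower for Timp3. In CPM neither of the 3 days differences reached 2-fold, and no member was called lower in the zone than in the rest of the injured side at 3 days (background 10.1%). Per 1000 bins both were past 2-fold at 3 days, with 304 against 714 UMIs of Timp2 and 153 against 355 of Timp3. Zone bins of that section held fewer UMIs, a mean of 607 against 1059.

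Set side by side, the sections differed in Mmp12 and Timp1 and, over unequal tissue, in Mmp3. On the injured side 2 of 10 genes were called higher at 28 than at 3 days (background 2.15%), Mmp3 at a log2 ratio of 3.67 (3.18 to 4.25) and Mmp12 at 2.48 (1.96 to 3.08). One was called lower (background 2.79%), Timp1 at -1.44 (-1.58 to -1.30). Mmp2, Mmp9, Mmp19 and Timp2 had intervals that include 0. When the 28 days section was cut to the 2080 µm that both reach, it held 12 UMIs of Mmp3 (0.614 CPM) against 33 (0.878 CPM) at 3 days, log2 ratio -0.48 (-1.61 to 0.47), which is no call. Mmp12 was still called higher within that reach, at 2.22 (1.64 to 2.87), at a background of 1.91%, and Timp1 lower at -2.33 (-2.58 to -2.10), at a background of 2.61%. The difference of Mmp3 between the sections thus lay in tissue that was measured at 28 days alone.

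On the opposite side the difference of Timp1 was larger still. It went from 672 UMIs (8.10 CPM) at 3 days to 42 UMIs (0.93 CPM) at 28 days, log2 ratio -3.11 (-3.61 to -2.67), and was the 1 member of 9 tested called lower there (background 1.03%). Mmp12 was the 1 called higher (background 1.52%), from 8 to 18 UMIs, log2 ratio 2.00 (0.77 to 3.46). Within the zone 3 of 10 were called higher at 28 days (background 4.70%), Mmp3 at 3.51, Mmp12 at 2.46 and Timp2 at 1.16, and Timp1 was called lower at -1.52 (background 6.24%). Within the shared reach the zone values were -0.76 (-1.91 to 0.25) for Mmp3, 2.07 for Mmp12, 1.29 for Timp2 and -2.71 for Timp1, at backgrounds of 4.76% higher and 10.0% lower. The level of Timp2 in the zone thus differed 2.23-fold between the sections, while on the whole injured side it stood at 651 and 659 CPM.

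Molecules of Mmp3 and Timp1 were packed into small parts of the tissue at 28 days. At 28 days the square of 32 by 32 bins with the highest level of Mmp3 held 282 of its UMIs, 66.8% of those on the injured side in 0.586% of the bins, at 581 CPM against 3.82 CPM elsewhere on that side. The square with the highest level of Timp1 overlapped it and held 41.6% of its UMIs, at 451 against 8.99 CPM. The highest squares of Mmp2 (67.9 CPM) and Mmp14 (93.4 CPM) were 1 and the same square, 320 µm from that of Mmp3, and that of Mmp12 (107 CPM) lay 590 µm from it. These squares held 8.36% of the Mmp2, 8.11% of the Mmp14 and 19.6% of the Mmp12 of that side, and the highest squares of Timp2, Timp3 and Timp4 held 4.40%, 2.66% and 1.82%. The centres of the highest squares of these 5 genes thus lay within 692 µm of each other, in the part of the zone farthest from the midline. Each of these squares held only 256 to 290 bins, against 1024 in a full one. Those of Mmp2, Mmp14 and Mmp12 rested on 24, 33 and 36 UMIs, near the minimum of 20.

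The tissue around this peak carried markers of several cell types. In the Mmp3 square the late phagocyte list (Cst7, Gpnmb, Spp1, Lpl, Itgax and Trem2) reached 8770 CPM against 752 on the rest of the side, and the fibroblast and meningeal list 2262 against 296. The infiltrating macrophage list was at 259 against 15.6 CPM and the neutrophil list at 424 against 49.6. Excitatory neuron genes were at 55.6 against 1621 CPM. Which of these cells held Mmp3 cannot be read from bins that mix them.

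Timp2 peaked elsewhere. Its highest square at 28 days lay 1615 µm from that of Mmp3 and held 1078 UMIs, at 2238 against 639 CPM. The late phagocyte list was as high there (10305 CPM), but Mmp3 had 0 UMIs, the fibroblast and meningeal list was at 74.7 CPM, and the oligodendrocyte list stood at 8366 against 3692 CPM. The squares with the most Timp3 lay outside the zone on both sides and at both times, at 1904 to 2347 CPM on the injured side and 1994 to 2019 CPM on the opposite side.

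At 3 days Timp1 peaked in 1 square at the edge of the tissue inside the zone, with 191 UMIs, 12.3% of its UMIs on that side, at 1778 against 36.3 CPM. Fibroblast and meningeal genes were at 5278 against 383 CPM in this square, smooth muscle genes at 2216 against 279, and erythroid genes at 2011 against 31.4. The late phagocyte list stood at 4896 against 213 CPM, the infiltrating macrophage list at 819 against 38.2 and the neutrophil list at 344 against 23.7. The opposite side had a second peak, 1376 µm from the midline. It held 121 UMIs, 18.0% of the Timp1 of that side in 1.23% of its bins, at 291 against 6.68 CPM. There the ependymal list stood at 1478 against 55.8 CPM and the oligodendrocyte list at 11628 against 3496, while the fibroblast and meningeal list was at 26.4 against 156 CPM. The late phagocyte list was raised in this square too, at 288 against 50.8 CPM, as was the homeostatic microglia list, at 1134 against 239. The peaks of Timp1 on both sides thus had phagocyte genes around them, while fibroblast and meningeal genes were high in the first and low in the second.

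Mmp3 and Mmp12 were also packed into single bins at 28 days. Mmp3 reached 15 UMIs in 1 bin, and 53 bins with 3 or more UMIs, all of them in the zone, held 59.4% of its molecules. Mmp12 reached 18 and 13 UMIs in its fullest bins, and 11 such bins held 33.2% of its molecules. Mmp2, Mmp14 and Mmp19 never passed 3 UMIs in a bin in that section. At 3 days no bin held more than 3 UMIs of Mmp3 or 2 of Mmp12, and Timp1 reached 10.

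Levels in marker-rich bins placed most of the genes near particular cell types, and Mmp9 was placed in neither section. These bins were the top 1% of a section by the share of UMIs from a marker list, with at least 2 genes of the list present. Lists with at least 500 such bins were compared first, a minimum set after values were seen. Levels in bins of any smaller list are not given for 3 days. Among the compared lists, 5 genes were highest at 3 days in bins rich in fibroblast and meningeal genes. Mmp2 was highest in choroid plexus bins, and Mmp3, Mmp9 and Mmp12 had too few UMIs to place. In the fibroblast and meningeal bins Timp1 was at 290 CPM against 16.4 in the other bins (log2 ratio 4.14, 3.95 to 4.33). Mmp14 was at 81.5 against 9.74 (3.07, 2.70 to 3.41) and Mmp19 at 23.8 against 1.82 (3.74, 2.98 to 4.35). Timp3 was at 1816 against 215 CPM (3.08, 3.00 to 3.15), and Timp2 showed the weakest preference, at 740 against 510 CPM (0.54, 0.42 to 0.65).

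Among lists with at least 500 bins, Mmp14, Mmp2 and Timp3 were highest at 28 days in fibroblast and meningeal bins. Mmp3, Mmp12, Mmp19, Timp1 and Timp2 were highest in late phagocyte bins of that section. Mmp14 was at 82.4 against 7.92 CPM and Timp3 at 1629 against 213, both close to their 3 days values, and Mmp2 at 51.1 against 4.74. In late phagocyte-rich bins Mmp3 was at 245 against 3.32 CPM (6.21, 5.91 to 6.50), Mmp12 at 84.9 against 1.82 (5.55, 5.06 to 6.001) and Timp2 at 2272 against 511 (2.15, 2.08 to 2.23). Of the 1033 late phagocyte-rich bins 1028 lay in the lesion zone, so this preference and the location in the zone cannot be told apart. Bins rich in infiltrating macrophage genes (Arg1, Msr1, Ccr2, Ms4a7, F13a1 and Chil3) were only 51 at 28 days, but held 586 CPM of Mmp3, 288 CPM of Mmp12 and 471 CPM of Timp1. Among lists with at least 500 bins, Timp4 was highest in astrocyte-rich bins at both times. It was at 141 against 54.4 CPM at 3 days and 135 against 58.1 at 28 days.

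**Figure D4:**
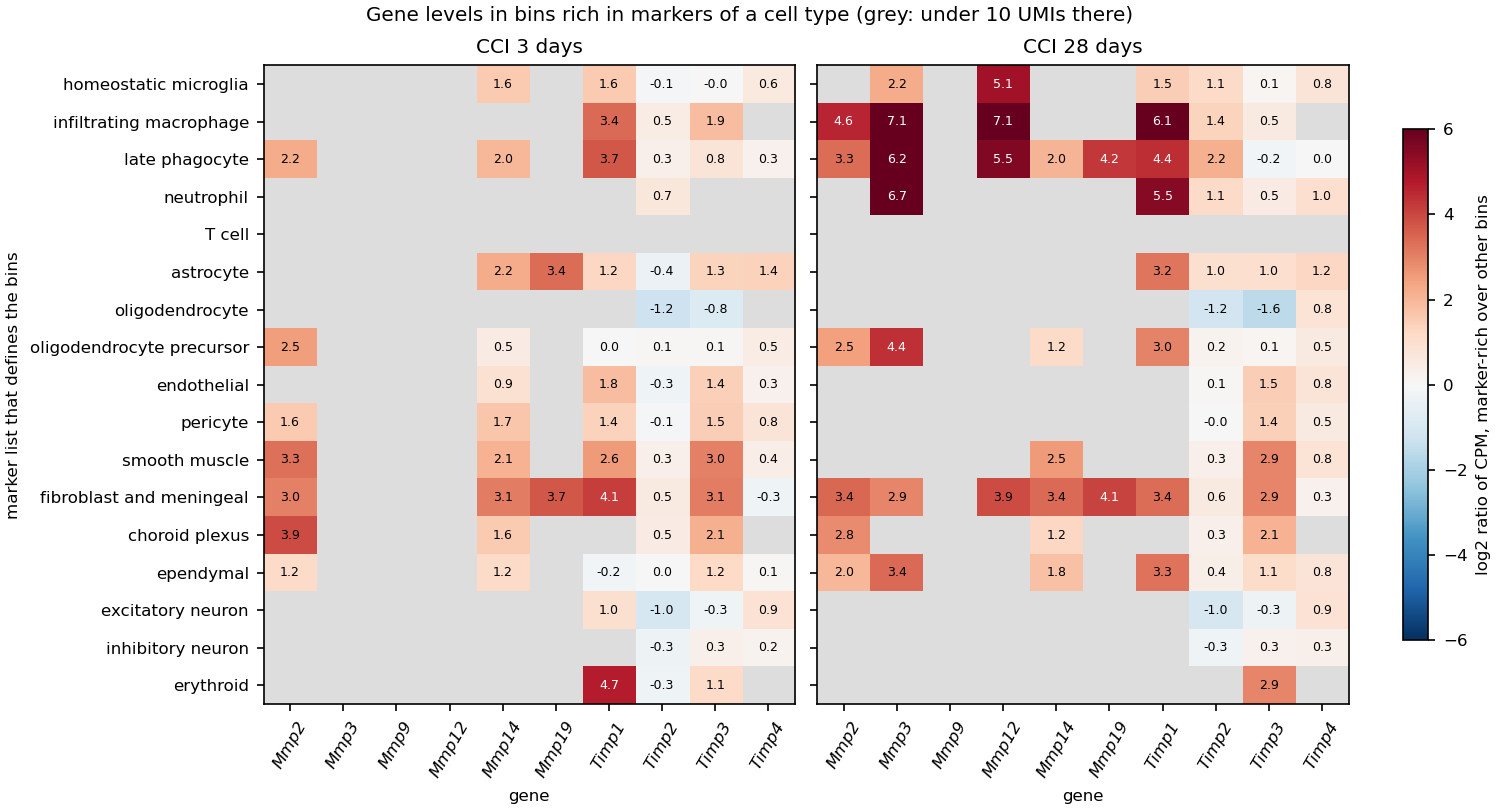
Log2 ratio of the level of each gene in bins rich in a cell type marker list over all other bins, as colour and number, for the 3 days and the 28 days section; combinations with under 10 UMIs in the rich bins are grey. The rows for infiltrating macrophage, late phagocyte and neutrophil bins are the darkest for Mmp3 and Timp1 at 28 days, and the fibroblast and meningeal row is raised for Mmp14 and Timp3 in both sections.

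Bins of the same marker type were also compared between the sides. At 3 days fibroblast and meningeal bins of the injured side held 447 CPM of Timp1 against 61.0 on the opposite side (2.84, 2.24 to 3.58). Endothelial bins held 135 against 7.21 CPM and smooth muscle bins 194 against 19.5. Timp3 in fibroblast and meningeal bins was at 1850 and 1767 CPM on the injured and opposite side (0.07, -0.08 to 0.21), and in smooth muscle bins at 2049 and 1481 CPM (0.47, 0.31 to 0.62). At 28 days fibroblast and meningeal bins held 94.4 and 21.0 CPM of Timp1 (2.05, 0.84 to 3.86) and 1416 and 2048 CPM of Timp3 (-0.53, -0.70 to -0.36). The Timp1 difference between the sides was thus present among fibroblast and meningeal bins at both times, whereas Timp3 was lower in those of the injured side at 28 days, by less than 2-fold.

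Timp2 and Mmp12 differed between the sides in bins rich in homeostatic microglia genes at 28 days. Timp2 was at 1416 CPM in those bins on the injured side and 451 on the opposite side, log2 ratio 1.64. Mmp12 was at 90.3 and 6.83 CPM. Timp2 also differed in excitatory neuron bins (379 and 151 CPM) and endothelial bins (720 and 398 CPM), so the difference was not seen in 1 marker class alone.

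Inside the zone, bins with at least 1 UMI of a gene were set against zone bins without it. Bins with Mmp3 at 28 days (181 bins) held 515 CPM of Timp1 against 45.3 (3.51, 3.24 to 3.76), a larger difference than that of the late phagocyte list (11211 against 3743 CPM, 1.58) or the neutrophil list (552 against 206, 1.42). Bins with Mmp19 (91 bins) held 292 CPM of Mmp12 against 20.4 (3.86, 3.19 to 4.44), of which 18 of 27 UMIs came from 1 bin. Bins with Mmp2 held 2636 CPM of fibroblast and meningeal genes against 507 (2.38, 2.23 to 2.52), and at 3 days 3153 against 533 CPM (2.57, 2.38 to 2.75). Bins that hold a UMI of a gene are deeper than others (a mean of 2256 against 504 UMIs for Mmp3 at 28 days), and the part of depth in these shares was not tested.

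Zone bins with Mmp9 were compared in the same way. In the 12 zone bins with Mmp9 at 3 days the neutrophil list (S100a8, S100a9, Retnlg, Cxcr2 and Csf3r) reached 4006 CPM, 30 UMIs, against 84.4 CPM in the other zone bins, log2 ratio 5.59 (4.98 to 6.10). Of those 30 UMIs 26 came from 1 bin, and 4 of the 12 bins held any neutrophil UMI, against 342 of 8494 other zone bins. In the 18 such bins at 28 days the list was at 1242 against 221 CPM (2.51, 1.98 to 2.95), and 11 of them held a neutrophil UMI, against 1099 of 13541. Fibroblast and meningeal genes did not differ beyond counting error in those bins at either time. The zone held 15 and 19 UMIs of Mmp9 in all.

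Across tiles of 8 by 8 bins, the genes with profiles most like each member were named by Pearson correlation over 1954 tiles at 3 days and 1726 at 28 days, as a description over tiles that share a section. Timp1 at 3 days ran most closely with Vim (0.71), the intermediate filament of reactive glia and mesenchymal cells, Tgm1 (0.70) and Tubb6 (0.69). At 28 days it ran with Lcn2 (0.57), Gpnmb (0.56) and Lyz2 (0.54). Mmp3 at 28 days ran with Saa3 (0.60), an acute-phase protein, Steap4 (0.59) and Ptx3 (0.53), a secreted pattern receptor. The 3 nearest genes of Timp1 were thus different ones in the 2 sections.

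Mmp12 at 28 days ran with Gpnmb, Lcn2 and Lgals3 (0.47 each). Mmp19 ran with Timp1 (0.37), Emp3 (0.36) and Vim (0.36) at 3 days and with the antigen presentation genes H2-Aa (0.39) and Cd74 (0.39) and with Lyz2 (0.38) at 28 days. Mmp2 and Mmp14 had no gene above 0.36, with Tuba1c, Tgfbi and Tspo (0.35 to 0.31) nearest to Mmp2 and Dab2, Cd74 and Gjb2 (0.35) nearest to Mmp14 at 3 days. In tiles of 4 by 4 bins the genes nearest to Mmp2 at 3 days were instead the choroid plexus genes Aqp1 (0.24), Kcne2 (0.23) and Slc4a5 (0.22), and none of the 3 genes named for Mmp19 at 3 days was among its nearest. At 28 days the nearest were Lyz2, Mdfic and Lgals3 (0.32) for Mmp2 and Col3a1, Cyp1b1 and Mxra8 (0.30 to 0.29) for Mmp14. For Mmp9 the highest value was 0.15, too weak to name a like profile.

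The constitutive inhibitors had other company. Timp3 ran with Zic2 (0.60), Apoe (0.59) and Col1a2 (0.58) at 3 days and with Zic2 (0.54) and Zic1 (0.49) at 28 days. Timp4 ran with the astrocyte genes Gpr37l1 and Atp1b2 (0.43 each) and Acsbg1 (0.39) at 3 days and with Ndrg2 (0.44), Aldoc (0.43) and Sparcl1 (0.42) at 28 days. Timp2 ran with Wdr6 (0.49), Zcchc12 (0.48) and Camk2d (0.47) at 3 days, and with Sparc (0.56), Apoe (0.44) and Ucp2 (0.44) at 28 days. Among the members the closest pairs at 28 days were Mmp3 with Timp1 (0.42) and Timp2 with Timp3 (0.36).

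Other genes of the same system were read from 3 lists. Their side ratios are given over whole sides, and at 3 days the opposite side reached farther from the midline than the injured side. The excitatory neuron list stood at 852 CPM on the injured and 2256 CPM on the opposite side of that section. The part of this unequal tissue in the list ratios was not tested. Of 14 genes that activate or inhibit metalloproteinases or bind them at the cell surface, 7 were called higher on the injured side at both times, beside the backgrounds of 10.5% and 6.43%, and none lower. They were Plau, Plaur, A2m, Cd44, Cd63, Thbs1 and Thbs2. The median log2 ratio of this list was 0.99 at 3 days and 1.01 at 28 days.

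The plasminogen activator Plau (urokinase) rose from 5.79 CPM on the opposite to 15.9 on the injured side at 3 days (log2 ratio 1.46, 1.29 to 1.64) and from 5.67 to 30.7 at 28 days (2.43, 2.24 to 2.64). Its receptor Plaur stood at 2.43 and 2.35. In the zone Plau was at 67.8 CPM at 3 days and 137 at 28 days, so that its level was higher in the zone of the later section. Plat (tissue plasminogen activator), Reck, Furin and Plg were not called at either time.

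A2m (alpha-2-macroglobulin, which traps proteases of all classes) had the highest ratio of this list at 28 days, 66.8 against 3.98 CPM (4.06, 3.85 to 4.29), after 35.2 against 7.73 CPM at 3 days (2.19, 2.05 to 2.33). Thbs1, a matrix protein that binds proteases and their inhibitors, had the highest at 3 days (2.85, 2.71 to 3.00) and 1.39 at 28 days, and reached 226 and 20.8 CPM in the zone. Thbs2 stood at 1.13 and 1.26. Cd44, which docks proteases at the cell surface, stood at 1.78 and 2.59, and Cd63, known as a surface partner of Timp1, at 1.22 and 1.24.

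**Figure D5:**
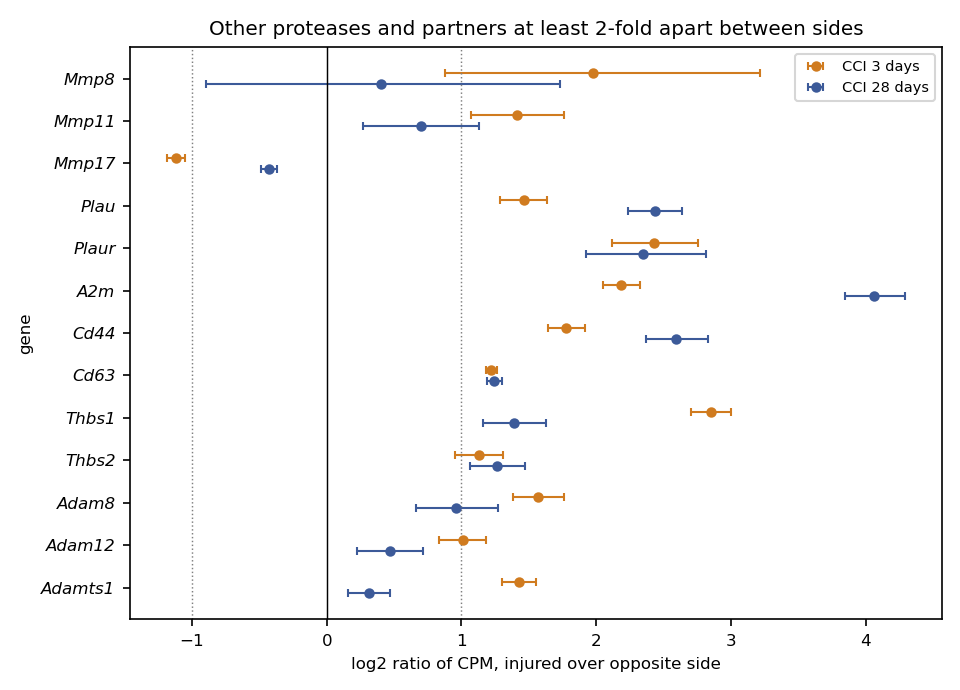
Log2 ratio of CPM, injured over opposite side, at 3 days and 28 days with 95% counting intervals, for the genes of the 3 lists that were called in either section; dotted lines mark 2-fold. The 7 genes from Plau to Thbs2 lie above 1 in both sections, and Mmp17 lies below 0 in both.

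Of 14 other matrix metalloproteinases, 11 had enough UMIs at 3 days, of which 2 were called higher and 1 lower, beside the backgrounds of 10.5% and 2.12%. Mmp8 (neutrophil collagenase) was called higher with 20 and 11 UMIs (1.98, 0.87 to 3.21), Mmp11 (stromelysin-3) with 158 and 131 UMIs (1.41, 1.07 to 1.76), and Mmp17 (a membrane-anchored protease) lower, at 61.7 against 134 CPM (-1.12, -1.19 to -1.06). At 28 days none of the 10 tested was called in either direction, beside backgrounds of 6.43% higher and 0.582% lower, and Mmp17 stood at -0.43. Of the other genes of the chromosome 9 cluster, Mmp13 had 15 and 28 UMIs on the injured and opposite side at 3 days and 19 and 14 at 28 days, of which 6 and 13 lay in the zone, and Mmp8 had 12 and 11 at 28 days. Mmp7, Mmp10 and Mmp20 stayed under 20 UMIs in all at both times, too few to say whether they moved with Mmp3 and Mmp12. Of the 14 ADAM and ADAMTS proteases, Adam8 (1.57), Adam12 (1.01) and Adamts1 (1.43) were called higher at 3 days and none at 28 days, counts not far from the backgrounds of 10.5% and 6.43%. At 28 days Adam8 stood at 0.96 (0.66 to 1.27). In the zone at 28 days the log2 ratios over the opposite side were 2.38 for Adam8, 1.13 for Adam12, 1.35 for Adamts1, 1.88 for Mmp11 and -1.83 for Mmp17. These 5 genes were thus past 2-fold there, beside zone backgrounds of 17.4% higher and 10.8% lower, although the whole side was not. This was not particular to them, since list genes called on neither whole side were past 2-fold in that zone too, in both directions. Mmp8 had 2 UMIs in that zone, too few to compare.

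In CPM the synapsin genes that enclose the inhibitors moved otherwise. In the zone Syn1 was at a log2 ratio of -1.62 at 3 days and -1.27 at 28 days while Timp1, inside it, was at 4.67 and 6.26. Syn2, around Timp4, was at -1.73 and -1.28, and Syn3, around Timp3, at -0.67 and -1.47. By this scale the probes of each inhibitor and its enclosing gene thus gave opposite directions in the zone. Counted per 1000 bins, only Timp1 among these inhibitors was higher in the zone than on the opposite side. Timp3 was then lower in the zone of both sections (153 and 155 UMIs, beside 188 and 173 opposite). Timp4 was slightly lower in both (50.3 and 45.8 UMIs, beside 51.0 and 49.5 opposite).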

How the data were processed

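Per the file headers, the authors deposited raw UMI counts per gene and 16 µm bin, which are not normalized and come from a mouse probe set read with Space Ranger 4.0.1; the submitters' processing notes name the build mm10. The sections were 10 µm thick. Bins under 100 UMIs were left out (1.93% and 2.15%). The sides were parted at array column 130 at 3 days and 240 at 28 days, the median column of the thalamic gene Gbx2. UMIs were summed per area, and CPM of 2 areas were divided after 0.5 UMI was added to each sum, with exact conditional binomial intervals. The lesion zone consisted of 64 µm tiles whose share of the 6 phagocyte genes, averaged over 5 by 5 tiles, exceeded the 99th percentile of the opposite side, in patches of at least 25 tiles. Correlations used log2(CPM + 10) in tiles of 8 by 8 bins with at least 5000 UMIs and genes with at least 200, for members with at least 100 UMIs. Named genes were the 10 members, list genes called in either section, and the 3 most correlated genes per member. 1 gene left out of the lists before counting and 1 correlated gene are not reported here. Squares of 32 by 32 bins needed 20 UMIs of the gene. That minimum, the 500 bins and 10 UMIs asked of marker-rich bins, and the square search itself were set after values were seen. The members and lists were chosen with earlier results of these data known. The code was tested on simulated counts. Python 3.11.15, scipy 1.17.1 and edgeR 4.0.16 (TMM factors) were used. Sequences are from RefSeq, GRCm38.p6, used for names, positions and promoters only. With 1 section per group no p-value was computed.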

Additional observations from a re-analysis of the deposited data

Results flagged for a closer look

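For 3 inhibitors the CPM ratios of the sections ran in opposite directions, with counting intervals on either side of 0. The difference between the sections was not tested, since each time has 1 section. The log2 ratio of the lesion zone over the rest of the injured side was -0.43 at 3 days and 1.02 at 28 days for Timp2, and -0.41 and 0.31 for Timp3. The log2 ratio of the injured side outside the zone over the opposite side was 0.37 at 3 days and -0.21 at 28 days for Timp4, and against the opposite side cut to the reach of the injured side the 3 days value was 0.04 (-0.04 to 0.13). Of these values, only that of Timp2 at 28 days reached 2-fold.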

How the results depend on the processing

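No paired analysis was possible because each group holds 1 section. With a minimum of 50 UMIs in place of 20, 3 genes (Mmp2, Mmp19 and Timp1) in place of 5 were called higher on the injured side at 3 days, because Mmp3 and Mmp12 have 41 UMIs each there. A call at 1.5-fold gave 31 upward calls of list genes in place of 19, summed over both sections so that a gene called in both counts in each, while the share of all genes called went from 10.5% to 21.7% at 3 days and from 6.43% to 13.6% at 28 days, and tiles of 4 by 4 bins kept 24 of the 54 genes with the most similar profile. Against the opposite side cut to the reach of the injured side, 4 genes were called higher at 3 days, without Mmp19, and against the opposite side beyond 1000 µm from the midline, chosen after seeing the data, 7, with Mmp14 and Timp3 added. In the zone at 28 days the count was 6 per bin, without Timp2, and 6 to 8 over all settings. At 3 days it was 4 to 8. Outside the zone at 3 days 1 gene in place of 2 was called higher without choroid plexus-rich bins (Mmp19) and 1 against the opposite side cut to the same reach (Mmp2). Apart from the call at 1.5-fold, these counts stand without the share of all genes called under the same setting. They therefore cannot be set against a background. Within the 2080 µm reach that both injured sides share, 1 gene (Mmp12) in place of 2 was called higher at 28 than at 3 days, and Mmp3 changed sign from 3.67 to -0.48; these were chosen after seeing the data. TMM scaling moved the log2 ratios by -0.15 on the injured side and -0.26 in the zone at 3 days and changed no count. The list with the highest member level was the same in 15 of 16 cases under either alternative for marker-rich bins. Of 470 single values that an alternative changed at all, 356 stayed within their counting interval, and of the called ones only that of Mmp3 between the sections changed sign. This share differed by setting. With a pseudocount of 2 UMIs all 50 values stayed. UMIs per bin moved 27 and left 23, the common reach of both sides moved 12 and left 8, and the mirrored zone moved 10 and left 10. Depth limits Mmp3 and Mmp12 at 3 days and Mmp9 at both times, and all spread between animals is unmeasured.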
